A study of Mus musculus with 18 samples.

Results

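Splenic B cells were captured by laser from frozen tissue sections in 2 sizes, and the chromatin regions that kept or lost reads between these sizes are described here. All 9 B cell libraries of the series' 18 were used: 5 libraries of B patches and 4 libraries of B 100 nuclei. Of the 9 T cell libraries, the 5 T patch libraries ranked regions by abundance without using the values compared. Other rankings used B patches, alone or with T patches, as stated there. All T cell libraries also entered a joint fit, and those of T 100 nuclei an alternative ranking. Of the 27396 regions in the deposited table, 27392 are nuclear; the 4 regions on mitochondrial DNA were left out.

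The tissue was fresh frozen spleen of C57BL/6J wild-type mice, with no treatment named, and both groups shared it. A B patch library pooled 10 captured areas of about 100 nuclei each, so about 1000 nuclei, while a B 100 nuclei library held 100 nuclei captured one by one. Cells were immunostained; the sources used here name neither the stained marker nor the age or number of the mice. A patch is an area of tissue, so cells beside the stained ones can lie in it, whereas a nucleus is picked singly. The labels call the libraries of a group technical replicates and tie none to an animal, so p-values here speak of the spread over libraries, understate the spread over mice, and allow that libraries share an animal. Capture size and the way of cutting (areas or single nuclei) changed together and cannot be told apart.

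In ATAC-seq the transposase Tn5 cuts and tags DNA that nucleosomes leave open, so reads gather at active gene starts and at regulatory elements between genes. A diploid nucleus carries each such site on a pair of chromosomes, so a site can yield only a few fragments per nucleus however deeply the library is read. Mature B cells are known for open chromatin at genes of the B cell receptor (Cd79a, Cd79b), the complement receptor Cr2, CD20 (Ms4a1), lineage transcription factors (Pax5, Ebf1) and MHC class II, which presents antigen to helper T cells.

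The sequences below are promoters, from 250 bases before to 50 after the start site. They lie at regions that held many reads in B patches and differed in whether reads were found at 100 nuclei. Lsm6 and Mcur1 had 0 reads in all 4 libraries of 100 nuclei, and H2-Aa and Rpl13a had reads in all 4. They are RefSeq sequences of GRCm38.p6, written 5′ to 3′ on the minus strand, on which all 4 genes lie, with each CG dinucleotide (CpG) in capitals: Lsm6 at chr8:78821103-78821402, Mcur1 at chr13:43560142-43560441, H2-Aa at chr17:34287774-34288073 and Rpl13a at chr7:45128696-45128995.
Lsm6: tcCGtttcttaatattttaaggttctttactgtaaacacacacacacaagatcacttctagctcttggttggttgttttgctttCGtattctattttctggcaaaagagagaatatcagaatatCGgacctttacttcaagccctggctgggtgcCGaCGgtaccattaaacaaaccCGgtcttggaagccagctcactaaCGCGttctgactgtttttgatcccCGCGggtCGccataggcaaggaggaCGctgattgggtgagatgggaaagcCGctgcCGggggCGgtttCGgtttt
Mcur1: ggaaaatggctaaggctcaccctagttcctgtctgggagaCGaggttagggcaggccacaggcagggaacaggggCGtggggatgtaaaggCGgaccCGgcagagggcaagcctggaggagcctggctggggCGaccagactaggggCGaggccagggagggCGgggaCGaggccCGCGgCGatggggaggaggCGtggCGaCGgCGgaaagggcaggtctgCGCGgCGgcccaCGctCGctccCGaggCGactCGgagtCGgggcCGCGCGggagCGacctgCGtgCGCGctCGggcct
H2-Aa: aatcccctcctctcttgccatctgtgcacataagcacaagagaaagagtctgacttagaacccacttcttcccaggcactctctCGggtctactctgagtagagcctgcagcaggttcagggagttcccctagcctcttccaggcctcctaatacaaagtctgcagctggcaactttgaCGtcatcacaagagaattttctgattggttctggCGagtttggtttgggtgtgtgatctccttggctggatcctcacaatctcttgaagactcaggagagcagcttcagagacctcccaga
Rpl13a: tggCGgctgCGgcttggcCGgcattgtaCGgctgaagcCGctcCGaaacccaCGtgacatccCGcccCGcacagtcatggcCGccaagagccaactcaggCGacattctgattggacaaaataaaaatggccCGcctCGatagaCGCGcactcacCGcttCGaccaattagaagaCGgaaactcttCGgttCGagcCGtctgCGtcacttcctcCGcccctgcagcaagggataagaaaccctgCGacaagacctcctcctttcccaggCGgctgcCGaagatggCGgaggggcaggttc
The windows of Lsm6 and Mcur1 held 16 and 32 CpG, and those of H2-Aa and Rpl13a 3 and 27. As many CpG or more occur in 33.0%, 9.52%, 76.7% and 15.5% of all 32851 promoter windows of this length in the table. Both a CpG-poor and a CpG-rich promoter are thus among the shown regions with reads in every library of 100 nuclei.

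Nuclear counts per library ran from 1863884 to 5324006 in B patches and from 327099 to 400144 in B 100 nuclei. Mitochondrial regions took 18.8 to 33.6% of all counts in patches and 29.4 to 45.8% at 100 nuclei. B patch library 2 stood apart from the other patches, with the fewest nuclear counts and reads in 75.4% of regions, against 90.1 to 98.2% in the others. Among the libraries of 100 nuclei, library 4 had the fewest nuclear counts and the most regions with reads (10950), and library 3 the fewest (7610).

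At 100 nuclei B cells had reads in far fewer regions than patches at the same depth. Each library was set to 327099 nuclear counts, the smallest total, by the exact expectation of drawing without replacement. The regions with at least 1 read were then 86.4, 70.4, 84.7, 83.4 and 88.7% in B patch libraries 1 to 5. They were 33.2, 33.9, 27.6 and 40.0% in B 100 nuclei libraries 1 to 4. Every patch library lay above every library of 100 nuclei, the nearest being patch library 2 and library 4 of 100 nuclei.

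The means were 82.7% ± 7.15 (SD, n = 5) and 33.7% ± 5.05 (SD, n = 4), a difference of 49.06 points with a 95% interval of 37.6 to 57.8. The two-sided exact permutation p was 0.00794, the smallest that 5 against 4 libraries can give, with a Benjamini-Hochberg adjusted p of 0.0397 over the 15 library measures tested. Without patch library 2 the difference was 52.1 points. Counting a region only from 2 reads gave 75.1 against 32.6%, and from 5 reads 56.2 against 30.4%, with the same adjusted p.

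Regions that had any reads at 100 nuclei mostly had many. The median count in such regions was 33, 31, 41 and 22 in libraries 1 to 4, and only 4.29 to 5.85% of them held 1 or 2 reads. In patches the median was 56 to 106 from totals at least 4 times larger, and 1.42 to 4.20% held 1 or 2. The sources used here do not say whether duplicate reads had been removed, so these counts are not counts of molecules.

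Reads were more concentrated at 100 nuclei. The fullest 1% of each library's own regions (274 regions) took 9.25, 9.17, 9.99, 9.51 and 9.81% of nuclear counts in patches and 13.9, 13.9, 14.6 and 11.5% at 100 nuclei. No patch library reached the lowest library of 100 nuclei. The number of 274 was the same in each library, although 7610 to 10950 regions had reads at 100 nuclei and 20661 to 26884 in patches. This share is thus tied to the number of regions with reads and is not a separate result. The difference was −3.93 points (interval −5.03 to −2.30; exact permutation p = 0.00794, adjusted p = 0.0397).

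Within the regions that had reads, counts were more alike at 100 nuclei than in patches. The median count there was 0.527 ± 0.0579 of the mean in patches (SD, n = 5) and 0.756 ± 0.0303 at 100 nuclei (SD, n = 4), a difference of −0.229 (interval −0.300 to −0.148; exact permutation p = 0.00794, adjusted p = 0.0397). The libraries did not overlap, with a highest ratio of 0.621 in patches and a lowest of 0.724 at 100 nuclei. Depth and the mitochondrial share moved with these 3 measures; with every library thinned to 327099 nuclear counts the last 2 differences were −3.85 points and −0.199. The part of the mitochondrial share was not tested.

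**Figure D1:**
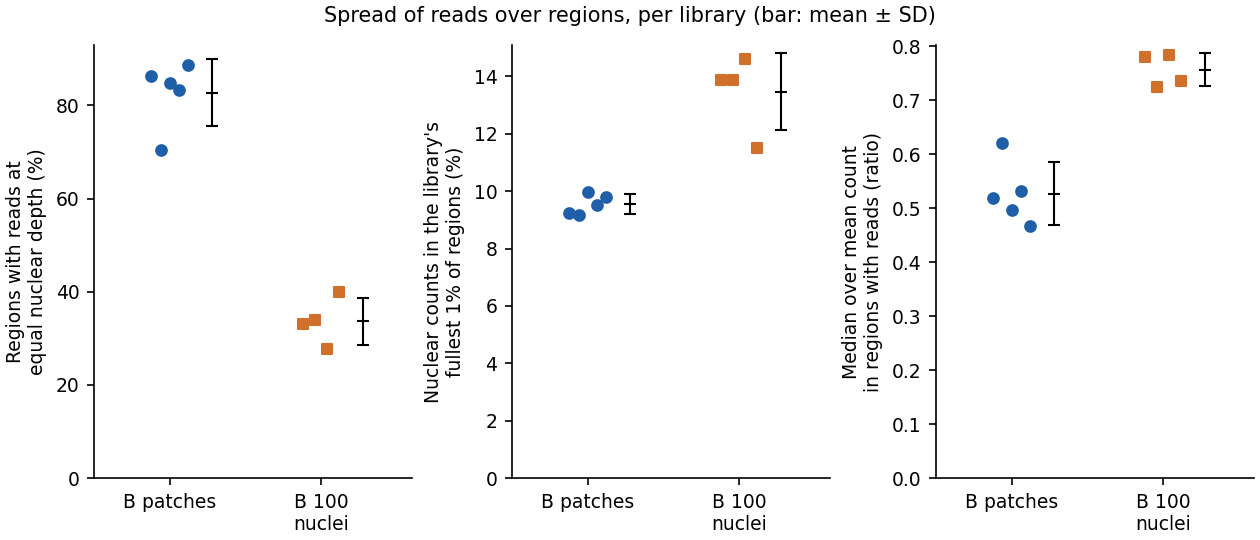
Each point is 1 library of B patches (circles) or B 100 nuclei (squares); the bars give mean ± SD, and all axes start at 0. Left, regions with reads at equal nuclear depth (%); middle, share of nuclear counts in the fullest 1% of regions (%); right, median over mean count in regions with reads (ratio). The 2 groups do not overlap in any of the panels.

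Which regions kept reads followed their abundance. Regions were put in 10 classes of equal size by their mean CPM (nuclear counts scaled to a common library total) in B patches. The regions with reads at 100 nuclei rose class by class, from 7.53% ± 1.83 in class 1, the lowest, to 85.2% ± 6.12 in class 10, the highest (SD, n = 4). In classes 5 and 9 the values were 22.6% ± 4.85 and 64.5% ± 8.39. At the same nuclear depth patches had reads in 36.4% ± 14.3 of class 1, 88.7% ± 8.15 of class 5 and 99.7% ± 0.634 of class 9 (SD, n = 5). The patch values set these classes, so the patch curve is a description of its own ranking.

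Ranked instead by the T patches, which are not compared here, reads were present at 100 nuclei in 15.3% ± 3.63 of the 20% of regions lowest in abundance and in 71.5% ± 6.51 of the highest 20%. Even in class 10 by B patches, library 3 of 100 nuclei lacked reads in many regions, having them in 76.9%, while library 4 had them in 91.6%. In class 1 by B patches, the few regions with reads averaged 15.9 to 31.8 counts per library at 100 nuclei. Patches averaged 8.47 to 20.9 there, but their own low counts set this class. In the lowest 20% by T patches the averages were 18.1 to 34.2 at 100 nuclei and 39.1 to 63.1 in the deeper B patches.

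**Figure D2:**
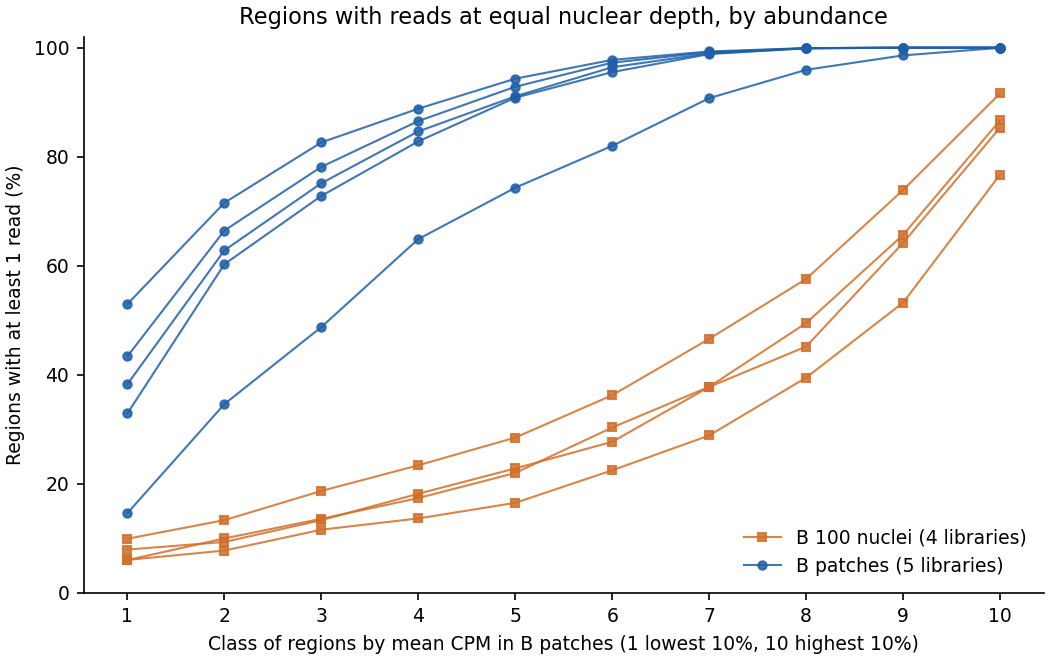
Lines show each library's regions with at least 1 read (%, y axis) at 327099 nuclear counts in 10 equal classes of regions by mean CPM in B patches (x axis). The 4 libraries of 100 nuclei (squares) rise from 6.01 to 9.93% in class 1 to 76.7 to 91.6% in class 10, and lie below all 5 patch libraries (circles), of which patch library 2 is the lowest.

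Wider regions kept reads more often. Region widths in the table ran from 108 to 1967 bp, and 4 width classes of equal size had medians of 112, 156, 257 and 527 bp. At 100 nuclei reads were present in 12.8% ± 2.69, 20.1% ± 4.45, 35.3% ± 6.08 and 67.0% ± 6.86 of these classes (SD, n = 4). At equal depth patches had reads in 63.2% ± 9.92, 77.4% ± 10.1, 91.4% ± 7.01 and 98.9% ± 1.72 (SD, n = 5).

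Width and abundance go together: from the narrowest to the widest class, median CPM in B patches was 6.71, 11.8, 25.2 and 74.9. Among regions of like abundance (20 classes by B patch CPM), those wider than their class median had reads in 1.90, 3.06, 3.51 and 3.61 percentage points more regions than the rest in libraries 2, 3, 1 and 4 of 100 nuclei. The wider regions were ahead in 16 to 19 of the 20 classes. This division by class median differs from the 4 width classes above, so the sizes are not directly comparable.

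Regions at gene ends kept reads more often than regions elsewhere. Within 1 kb of either end of a gene lay 14041 regions, and 41.7% ± 5.74 of them had reads at 100 nuclei. The values were 27.0% ± 4.42 of 8676 regions inside genes and farther from the ends, 23.8% ± 4.03 of 4117 regions outside genes up to 50 kb away, and 14.7% ± 3.58 of 558 regions beyond 50 kb (SD, n = 4). In patches at equal depth the same 4 classes stood at 87.6, 79.6, 75.6 and 61.6%.

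At like abundance this advantage was small and changed sign between libraries. Gene-end regions led the rest by 13.9 to 17.7 points before abundance was held alike and by −0.889 to 1.28 points after. Around start sites alone, which the promoter table places on all chromosomes used but chromosome 18, 43.3% ± 5.66 of 11884 regions had reads against 26.3% ± 4.49 of 14765 others. There the lead fell from 15.2 to 18.2 points down to −0.705 to 1.44 points at like abundance.

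Promoters rich in G and C kept reads more often too. In 4 equal classes of start-site regions from the poorest to the richest in GC, 44.4% ± 6.24, 53.6% ± 6.47, 60.4% ± 6.25 and 61.9% ± 7.12 had reads at 100 nuclei. The richest class led the poorest by 16.5 to 18.9 points, and by −1.31, 0.533, 2.83 and 5.07 points at like abundance in libraries 2, 3, 1 and 4. The median promoter had 19 CpG at regions read in 0 of the 4 libraries and 26 at regions read in all 4, against 7 over all windows of the table. In 5 equal abundance classes by B patches, from the lowest, the median was 18, 17.5, 20, 21 and 25 CpG at regions read at least once and 16, 17, 19, 21 and 23 at regions never read. Regions read were also somewhat more abundant within each class.

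Although many regions had no reads at 100 nuclei, the counts were spread over the classes much as in patches. The widest 25% of regions held 64.7% ± 2.59 of nuclear counts in patches and 64.4% ± 0.331 at 100 nuclei (difference 0.270 points, interval −3.17 to 3.31; exact permutation p = 0.921). Regions within 1 kb of a gene end held 70.6% ± 2.53 and 70.6% ± 0.988 (difference 0.0229, interval −2.83 to 3.53; exact p = 0.992). The most abundant 10% of regions by T patches held 40.9% ± 2.48 and 40.8% ± 0.770 (difference 0.109, interval −3.08 to 3.01; exact p = 0.976).

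None of the 12 shares of this kind passed (adjusted p = 0.992 each). A shift of up to about 3 points in these 3 shares in either direction lies within the intervals, so they do not show that the shares are equal. The less abundant 50% of regions held 17.8% ± 1.83 and 17.7% ± 0.777, and regions beyond 50 kb of a gene held 0.644% ± 0.189 and 0.566% ± 0.0893. Patch libraries spread more than libraries of 100 nuclei in the widest 25%, from 60.9 to 67.5% against 64.0 to 64.7%, with patch library 2 lowest.

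**Figure D3:**
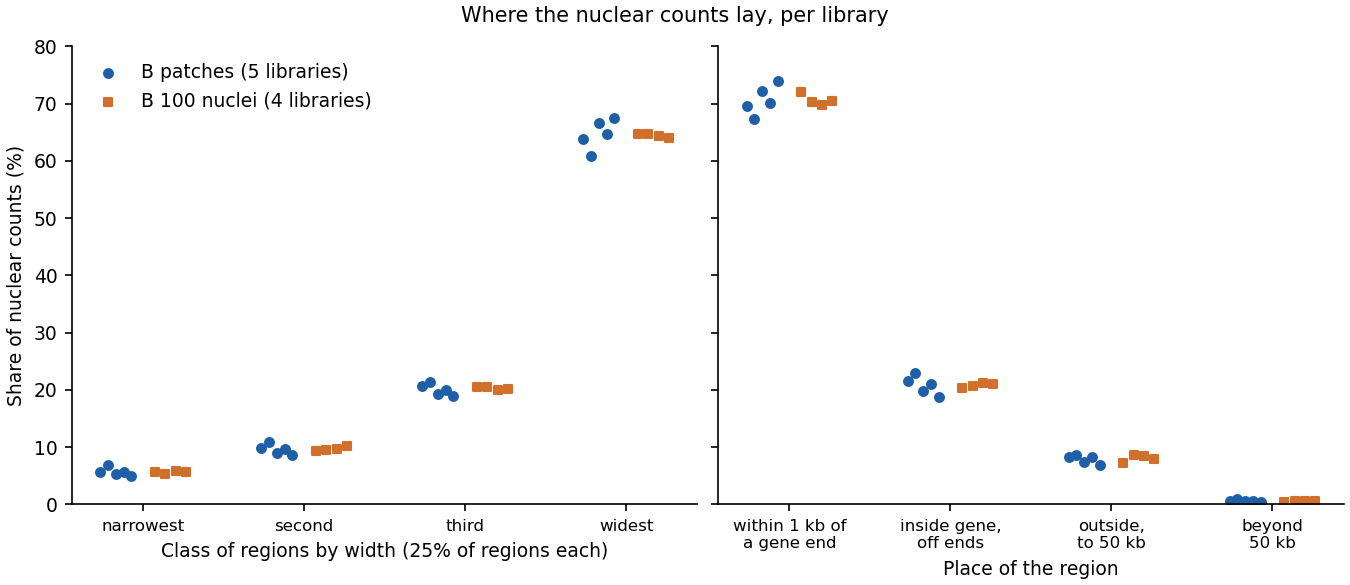
Each point is 1 library's share of nuclear counts (%, y axis, from 0) in 4 equal classes of regions by width (left) and in 4 classes of place (right), with B patches as circles and B 100 nuclei as squares. In each class the libraries of 100 nuclei lie within or beside the range of the patches, for example 69.8 to 72.0% against 67.4 to 74.0% within 1 kb of a gene end.

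The 4 libraries of 100 nuclei differed in which regions they read. Of the 27392 regions 9051 (33.0%) had reads in none of them, 7608 in 1, 5090 in 2, 3319 in 3 and 2324 (8.48%) in all 4. Together the 4 libraries reached 18341 regions, 67.0%, and the 5 patches together 27372, 99.9%. Reads in all 5 patches were found in 18372 regions (67.1%), of which 3750 had none at 100 nuclei. The 9051 regions had held 9.83% of patch counts.

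From 0 to 4 libraries with reads, median region width was 133, 175, 267, 428 and 612 bp, and median CPM in B patches 7.99, 15.6, 30.3, 59.6 and 119. The share at gene ends was 38.9% of the regions never read and 78.9% of those read in all 4. Across regions, log2 CPM correlated between libraries of 100 nuclei with a mean Pearson's r of 0.334 (6 pairs, 0.309 to 0.359). Patches correlated among themselves at 0.685 (10 pairs) and with libraries of 100 nuclei at 0.458 (20 pairs). On average, then, libraries of 100 nuclei correlated more with patches than with each other; this is a description over regions, which are not replicates and share each library's depth.

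The spread between libraries was accordingly wide. In the most abundant 20% of regions by T patches the median coefficient of variation (SD over mean) of CPM was 30.8% in patches and 100.5% at 100 nuclei. In the lowest 20% it was 91.5% over 5470 regions in patches. At 100 nuclei it was 200% over the 2437 of 5479 regions with any reads, which is the value of a region read in 1 library of 4 and the highest possible.

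For the test of single regions, edgeR's quasi-likelihood test was run on the 20106 nuclear regions past its filter on low counts. It called 3768 regions at an adjusted p of 0.05, all higher in patches, which is 18.7% of those tested, and 0 (0%) higher at 100 nuclei. At an unadjusted p under 0.05 there were 4658 higher in patches and 5 higher at 100 nuclei, and DESeq2 called 3610 and 14. TMM-scaled values did not overlap between the groups in 22.1% of tested regions with patches higher and in 0.0696% with 100 nuclei higher. The first share includes regions at 0 in all 4 libraries of 100 nuclei, 3373 of those tested. They passed the filter only through patches, so the 2 shares are not a fair balance of directions.

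The calls were nearly all losses to 0. Of the 3768, 3351 (88.9%) had 0 reads in all 4 libraries of 100 nuclei, and of the 3373 tested regions with 0 reads there, 99.3% were called. That share was largely set by the filter, since regions at 0 in all 4 passed it only through patches where they were high; just 20 regions had no reads in any patch, so there is no set of the opposite kind. Of the 2324 regions read in all 4, 3.49% were called. Another 308 called regions had reads in 1 library, 18 in 2, 10 in 3 and 81 in all 4. TMM scaling set the median log2 fold change of all tested regions at 1.003 in favour of patches, against 0.22 with library size alone, so fold changes are read against that shift.

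With library size alone there were 2894 calls higher in patches and 11 higher at 100 nuclei. All 11 had reads in all 4 libraries of 100 nuclei, and none was called with TMM. At the start of Heg1, for example, CPM was 25.6 ± 11.9 in patches (SD, n = 5) and 163.5 ± 47.8 at 100 nuclei (SD, n = 4). At 1700008J07Rik it was 250 ± 31.8 and 597 ± 175. Thinning patches to the mean nuclear total of the 100 nuclei libraries left 302 calls, 260 of them at 0 in all 4. A joint fit with the T libraries made 0 calls (7761 at an unadjusted p under 0.05), and leaving out patch library 1, 3, 4 or 5 left 1190, 1206, 1229 and 1148.

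Only 5 of the 81 called regions read in all 4 libraries were also called with library size alone, and they are named here because of that, after their values were seen. All lie on a gene start and had fewer, not absent, reads per nuclear count at 100 nuclei. These 5 were higher in patches, while 11 regions read in all 4 were called the other way with library size alone. The median of all regions is the shift given above. Log2 fold changes below are from edgeR with TMM, as patches minus 100 nuclei.

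One lies at chromosome 15, 5116224 to 5116868, at an end of Card6 and the start of Rpl37, which encodes a protein of the large ribosomal subunit. It had 941, 299, 610, 560 and 783 counts in patches 1 to 5 and 17, 5, 12 and 15 at 100 nuclei. In CPM that was 164.6 ± 6.86 (SD, n = 5) against 33.1 ± 15.4 (SD, n = 4), with every patch above 160 and every library of 100 nuclei below 46; the log2 fold change was 3.13 ± 0.66 (SE, edgeR adjusted p = 0.0123). Patches lay close together, from 160.4 to 176.7 CPM.

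At the start of Epc2, which encodes a subunit of a histone acetyltransferase complex (chromosome 2, 49451281 to 49452275), counts were 962, 513, 826, 646 and 1047 against 24, 27, 6 and 15. The log2 fold change was 2.96 ± 0.59. At Nfya, a subunit of the CCAAT-binding factor NF-Y (chromosome 17, 48409429 to 48410320), they were 2053, 692, 1752, 1207 and 2064 against 86, 93, 31 and 49, with a log2 fold change of 2.03 ± 0.39. At both regions every patch lay above every library of 100 nuclei in CPM, and both calls have an edgeR adjusted p of 0.0123.

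Pdcd10, an adaptor of kinase signalling (chromosome 3, 75556337 to 75557677), had 604 ± 72.2 CPM in patches and 246 ± 114 at 100 nuclei, a log2 fold change of 2.12 ± 0.36. The fifth region, at 4932412D23Rik (chromosome 16, 42875018 to 42876340), had 625 ± 105 and 338 ± 98.8 CPM and 1.71 ± 0.28 (both edgeR adjusted p = 0.0123). DESeq2 did not call Nfya and 4932412D23Rik (adjusted p = 0.055 and 0.0996). None of these regions was called in the joint fit with the T libraries. Only Pdcd10 and 4932412D23Rik kept the call with the replicate number as a block.

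Regions with 0 reads in all 4 libraries of 100 nuclei were also ranked by mean CPM over the B and T patches together, and the first 10 are described without a test, since these counts chose them. These 10 lie within 1 kb of a gene end; by B patches alone the order differs, and a region inside Zmynd11 (86.3 CPM in B patches, 5.63 kb from an end of the gene) would stand among the first. At Xpr1, a phosphate exporter (chromosome 1, 155416869 to 155417648), patches held 331, 312, 594, 184 and 718 counts. Against a floor of 3 counts over the 4 libraries, its mean of 117.7 CPM is 59.3-fold higher in patches. Counts at 100 nuclei varied widely between libraries, so such folds are not lower bounds.

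Lsm6, an Sm-like protein of RNA processing, had 592, 326, 383, 326 and 447 counts in patches (chromosome 8, 78820721 to 78821310, 57.9-fold over the floor). Mcur1, a regulator of mitochondrial calcium uptake, had 674, 118, 327, 395 and 530 (chromosome 13, 43559676 to 43560484, 50.4-fold over the floor). Their promoters are the first 2 sequences shown above. The others include Fam111a, Pitpna (a phosphatidylinositol transfer protein), Ankrd49, Hpcal1 and Vamp3 (a vesicle fusion protein), from 35.1-fold to 47.4-fold over the floor.

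At the other end stand the 10 regions lowest by the same mean over B and T patches that had reads in all 4 libraries, again a choice on these counts. They are 109 to 230 bp wide. At an end of Nipsnap1 patches held 145, 3, 23, 35 and 64 counts and the libraries of 100 nuclei 18, 18, 125 and 2. In a region 8.46 kb outside E2f2, which encodes a transcription factor of the cell cycle, they were 47, 0, 93, 55 and 90 against 11, 1, 14 and 9. Both regions thus had reads in all 4 small libraries while patch library 2 had 3 and 0.

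Regions at genes that mark B cells mostly kept some reads, with wide scatter. For 17 fixed genes the region nearest a gene end was followed. Besides B cell genes they include Actb, Rpl13a and the T cell genes Cd3e, Cd8a and Lef1. Of the 17, 6 had reads in all 4 libraries of 100 nuclei, 7 in 1 to 3 and 4 in none (Cd40 and the T cell genes). Reads in all 5 patches were found for 15. Over all regions 8.48% had reads in all 4, 33.0% in none and 67.1% in all 5 patches, with abundance not held alike. In the 13 with reads at 100 nuclei the coefficient of variation was above that in patches every time, with medians of 108 against 29.4%. In 11 of the 17 the highest CPM of all 9 libraries came from a library of 100 nuclei. The same count was not made over all regions, so this is not read as a trait of these genes.

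Cd79b, a signalling chain of the B cell receptor, had 691, 93, 524, 181 and 372 counts in patches and 58, 20, 105 and 44 at 100 nuclei. Its partner chain Cd79a had 194, 49, 210, 347 and 250 against 4, 82, 0 and 0. So of the 2 chains of one receptor, one was read in all 4 small libraries and the other in 2. Neither passed (log2 fold changes 0.14 ± 0.69 and 0.79 ± 1.49, SE; edgeR adjusted p = 0.969 and 0.893).

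Cr2, which encodes a receptor for complement fragments, had 760, 171, 492, 399 and 393 against 1, 31, 40 and 50. Ms4a1 had 513, 206, 300, 370 and 378 against 0, 153, 0 and 51. Their groups overlapped in CPM, and neither was called (edgeR adjusted p = 0.534 and 0.973).

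Pax5, which fixes B cell identity, varied least among the fixed genes with reads at 100 nuclei: 196, 76, 168, 120 and 189 counts against 24, 33, 18 and 16. In CPM it stood at 39.2 ± 3.63 (SD, n = 5) and 59.7 ± 16.8 (SD, n = 4), with a log2 fold change of 0.21 ± 0.91 (SE, edgeR adjusted p = 0.963). The CPM means and this fold differ in direction because TMM scaling turns the means to 52.3 and 45.4. The region nearest an end of Ebf1, an early B lineage factor, was sparse in both, at 112, 0, 35, 2 and 77 against 0, 24, 0 and 10. Fcer2a, the low affinity IgE receptor, had 245, 104, 319, 206 and 197 against 0, 7, 52 and 0.

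H2-Aa and H2-Ab1 encode the chains of the MHC class II molecule I-A. H2-Aa had 923, 287, 661, 594 and 664 counts in patches and 44, 199, 31 and 21 at 100 nuclei. Library 2 of 100 nuclei was far above the rest, and without it H2-Aa was called as higher in patches (edgeR adjusted p = 0.0349, against 0.765 with it). H2-Ab1 had 523, 264, 392, 531 and 638 against 0, 1, 77 and 24 (adjusted p = 0.452).

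Cd40, the receptor for T cell help, lost all reads, with 265, 27, 161, 115 and 185 counts in patches and 0 in each library of 100 nuclei. Its region lies at chromosome 2, 165055528 to 165055745 (17.98-fold over the floor). Its call (edgeR adjusted p = 0.0123) was largely set by the filter, like that of other tested regions at 0 there. Cxcr5, which guides B cells to follicles, kept reads in all 4, at 79.4 ± 40.6 CPM in patches (SD, n = 5) and 127 ± 128 at 100 nuclei (SD, n = 4). Bcl2, a survival factor, kept them in 3 (221, 61, 226, 319 and 297 counts against 14, 0, 19 and 3). Neither was called (edgeR adjusted p = 0.977 and 0.354).

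Among genes that every cell uses, Rpl13a, of the large ribosomal subunit, had 1684, 600, 858, 966 and 1105 counts against 274, 189, 71 and 85 (edgeR adjusted p = 0.874). The region nearest Actb, 1095 bp outside the gene, had 201, 77, 56, 71 and 95 against 0, 16, 13 and 1 (adjusted p = 0.709). Rps3, of the small ribosomal subunit, is not one of the fixed genes. It was picked for the smallest p among the tested regions of the ribosomal protein list. It fell from 287, 63, 323, 156 and 245 counts to 0, 1, 0 and 0 (chromosome 7, 99483410 to 99483895, at its start). The log2 fold change was 7.01 ± 1.58 (SE, edgeR adjusted p = 0.0123). With so few reads at 100 nuclei, this region passed the filter only through patches.

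The 3 T cell genes among the 17 had no reads at 100 nuclei. Lef1, a T cell transcription factor, had 122, 112, 84, 110 and 103 counts in patches at a region inside the gene and 0 in the 4 libraries of 100 nuclei. It stood at 31.7 CPM in patches (15.97-fold over the floor, edgeR adjusted p = 0.0123, largely set by the filter). In class 7 by B patches, with a median of 29.8 CPM, 16.4% of regions were likewise at 0 in all 4. Cd8a had 43, 37, 33, 3 and 19, and Cd3e 39, 0, 0, 0 and 11; both were at 0 in all 4, were too low to be tested, and stand for defining T cell markers. In such bulk captures, fewer cells of a type and less signal per cell cannot be told apart.

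**Figure D4:**
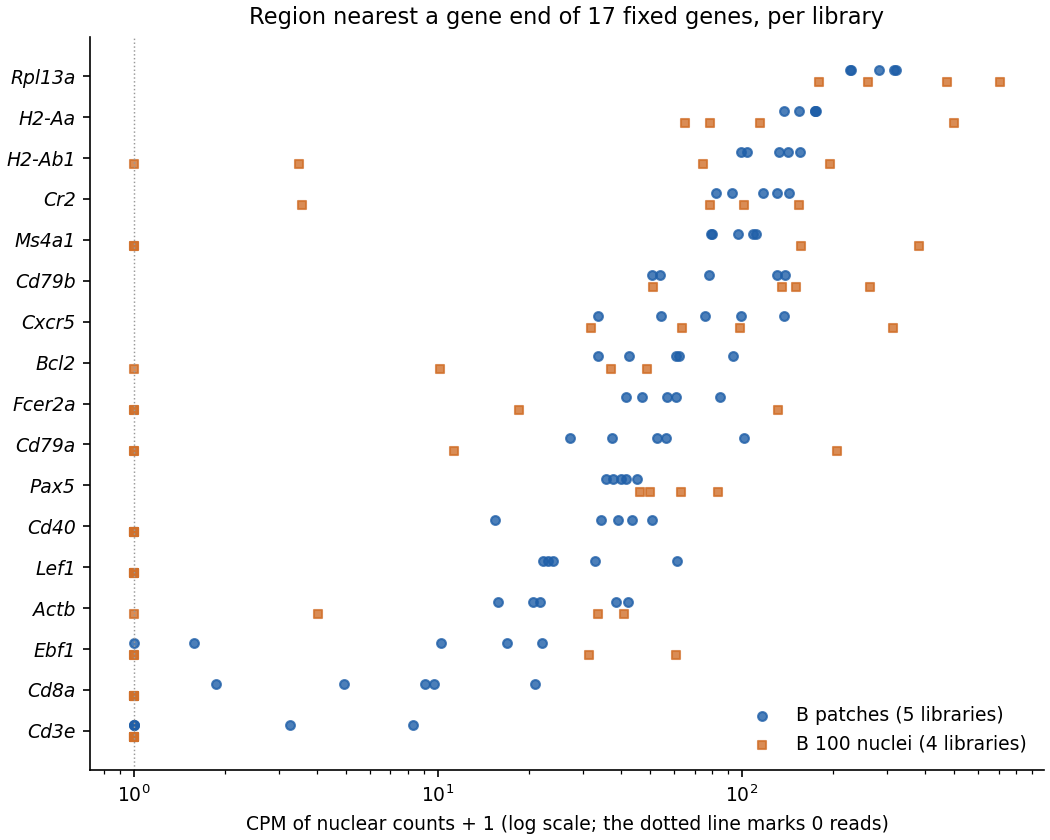
CPM of nuclear counts plus 1 on a log axis at the region nearest a gene end of the 17 fixed genes, ordered by mean CPM in patches, with 1 point per library of B patches (circles) or B 100 nuclei (squares). Points on the dotted line have 0 reads; the 4 libraries of 100 nuclei span a wider range than the 5 patches in each of the 13 genes with reads in both, by coefficient of variation.

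Gene lists differed in how many of their regions kept reads, and their calls are set beside the 18.7% of all tested regions called higher in patches, a background that carries the same filter. The share called also varied with abundance, which is not held alike in these comparisons. In classes 1 to 10 by B patches it was 0, 8.52, 26.1, 36.1, 34.95, 26.8, 18.6, 10.7, 3.54 and 3.80%. Calls at regions with 0 reads in all 4 libraries of 100 nuclei were largely set by the filter. The lists and their genes were chosen with earlier results of these data known. Regions named below were picked by smallest p within their list. MHC class II had the highest share with reads among the lists, at a median of 65.1 CPM in patches. On average 65.0% of its 30 regions were read at 100 nuclei, and 8 were read in all 4 libraries. In class 9 by B patches, with a median of 68.1 CPM, 64.5% were read. For MHC class II 1 of 29 tested regions was called. That region lies at the start of H2-Oa, a modulator of peptide loading (97, 71, 139, 93 and 98 counts against 0).

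Of 27 regions at B cell receptor and coreceptor genes 52.8% were read on average, 2 had no reads in any library of 100 nuclei, and 1 of 26 tested was called, beside Cr2. B cell receptor signalling genes had 78 regions, 45.2% read, with 3 of 69 called, among them Vav2, a guanine nucleotide exchange factor (155, 46, 111, 132 and 51 against 0). Both shares of calls lie below the background. B lineage transcription factors had 36 regions, 42.4% read, and 5 of 30 called, near the background.

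A called region inside Ebf1 lies at chromosome 11, 44624709 to 44624940 (24.4-fold over the floor, edgeR adjusted p = 0.0123, largely set by the filter). It fell from 331, 187, 88, 118 and 106 counts to 0 in all 4. Mef2c, a factor of B cell activation, did the same at an intronic region, from 175, 110, 85, 41 and 123 to 0. Of the marginal zone and Notch genes 4 of 36 regions were called, including Cd9, a surface marker of marginal zone B cells (416, 87, 136, 187 and 260 against 0), and Maml2, a Notch coactivator (191, 13, 197, 130 and 84 against 0, 0, 0 and 1; edgeR adjusted p = 0.0214).

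Costimulation, homing and survival genes had 10 of 53 regions called, near the background, and all 10 were at 0 in the 4 libraries of 100 nuclei. The germinal centre and plasma cell list, whose genes are little used in resting B cells, had 6 of 16 called, with Bcl6 (145, 25, 96, 122 and 67 against 0) and Irf4 (46, 22, 33, 45 and 139 against 0) among them. All 6 calls were at regions with 0 reads in the 4 libraries of 100 nuclei. The median CPM of this list in patches was 16.9, against 65.1 for MHC class II. Class 5 by B patches, with a median of 15.7 CPM, had 34.95% of tested regions called. Housekeeping and ribosomal protein genes had 2 of 31 and 3 of 24 called, with Tubb5, a tubulin, at 357, 48, 179, 345 and 237 against 0.

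Lists of other cell types differed in what they kept: 54.5% of T cell identity, 53.3% of NK cell and 54.5% of macrophage and monocyte regions had no reads in any library of 100 nuclei, against 2 of 9 dendritic cell, 1 of 4 erythroid and 1 of 6 stromal regions. Over all regions the share without reads was 33.0%. It was 66.0, 55.9 and 46.5% in classes 2, 3 and 4 by B patches, with medians of 5.3, 8.2 and 11.5 CPM. The macrophage and monocyte, T cell identity and NK cell lists had medians of 5.16, 8.89 and 13.2 CPM. T cell identity had 66 regions, of which 36 had no reads in any library of 100 nuclei and 2 had reads in all 4. This list had 13 of 31 tested regions called, all at 0 there. Its summed share of nuclear counts was 0.0881 to 0.137% in patches and 0.0770 to 0.126% at 100 nuclei, so the ranges overlapped. At 100 nuclei its reads thus lay in fewer regions at a like total.

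NK cell genes had 4 of 9 called (summed share 0.0202 to 0.0263% in patches and 0 to 0.0435% at 100 nuclei) and macrophage and monocyte genes 2 of 6 (0.0184 to 0.0272% and 0.00795 to 0.0282%). Dendritic cell genes had 2 of 9 (0.0168 to 0.0300% and 0.00489 to 0.0311%). The erythroid and stromal lists had 3 and 4 tested regions and no call. Their summed shares were 0.00558 to 0.0103% in patches and 0 to 0.0106% at 100 nuclei for the erythroid list, and 0.0101 to 0.0155% and 0.00650 to 0.0430% for the stromal list, whose mean was higher at 100 nuclei. Nearest Hbb-bt, a beta globin gene, a region had 92, 18, 42, 51 and 43 counts against 0, 1, 0 and 2 (edgeR adjusted p = 0.0809). A region inside Pecam1, an endothelial surface gene that some blood cells also use, was read in all 4 libraries of 100 nuclei. It had 125, 47, 106, 92 and 182 counts in patches against 41, 22, 75 and 38. In CPM that was 28.2 ± 5.52 (SD, n = 5) against 116 ± 55.1 (SD, n = 4; edgeR adjusted p = 0.559). Another region inside Pecam1 was read in 3 libraries of 100 nuclei and had the lower mean CPM there, 33.7 against 38.9 in patches. Its counts were 187, 72, 191, 106 and 191 against 27, 4, 0 and 18 (edgeR adjusted p = 0.815). How far the first Pecam1 region alone set the higher mean of the stromal list was not tested. The neutrophil list had no region. The part of such cells in the differences above was not tested.

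**Figure D5:**
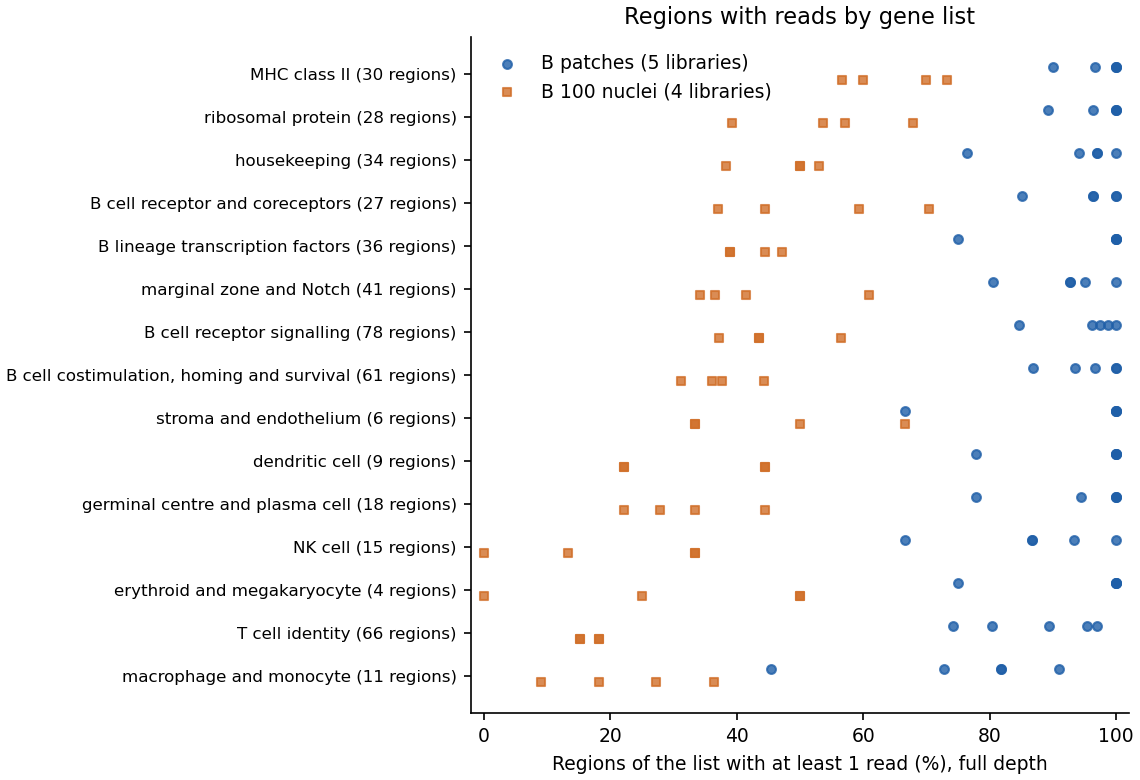
Regions of each gene list with at least 1 read (%, x axis, full depth), with 1 point per library of B patches (circles) or B 100 nuclei (squares), and lists ordered by their median CPM in B patches, highest at the top. At 100 nuclei MHC class II lies at 56.7 to 73.3% and T cell identity at 15.2 to 18.2%.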

How the data were processed

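The authors deposited 1 table of raw whole-number counts of reads per region for 18 libraries, with no normalization; columns were matched to libraries by title. Per the submitters' processing notes, Trimmomatic 0.36, Bowtie2 2.4.5, Picard, SAMtools 1.14, deepTools 3.5.2 and MACS2 2.2.7.1 were used on mm10; how regions were called, duplicates treated and cut positions shifted is not stated in the sources used here. Start coordinates are printed as deposited.

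Counts were fitted with edgeR 4.0.16 (TMM, filterByExpr with a minimum count of 10, quasi-likelihood F-test, Benjamini-Hochberg adjustment over all regions tested), with DESeq2 1.42.0 as an alternative. The SE is the size of the log2 fold change over the root of its F statistic. Library measures were compared by two-sided exact permutation tests adjusted over 15, with intervals from inverting the test. Regions took the gene with the nearest end within 50 kb (95.1% of regions) from a table of GRCm38.p6; start sites came from the promoter table. The start-site and GC shares of counts were added after the data were examined. A fold against 0 uses CPM and 3 counts over the group as floor, and is not a lower bound. The edgeR test was tried on simulated data.

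Named regions were 17 fixed genes (1 more is not reported here), the 8 highest and lowest folds, the 10 most abundant lost and least abundant kept regions (by mean CPM over B and T patches), and up to 2 per gene list by smallest p; the text prints a part. The members, lists and rules were chosen with earlier results of these data known. Alternatives covered scaling, filters, class limits, depth, mitochondrial rows, a joint fit, a replicate block and each library left out.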

Additional observations from a re-analysis of the deposited data

Results flagged for a closer look

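In 72 groups of library values examined, 4 held a library far from the rest, measured by its gap to the nearest other library over the range of the group; chance gives about 1 in 20. B patch library 2 had 0.968% of nuclear counts beyond 50 kb of a gene, against 0.469 to 0.606% in the other patches. The same library had 0.137% of nuclear counts at T cell identity regions, against 0.0881 to 0.101%. At 100 nuclei, library 2 had 0.275% at B cell receptor and coreceptor regions, where the others had 0.109 to 0.118%. Library 4 of 100 nuclei had 31.9% of start-site counts at the promoters richest in GC, against 30.4 to 30.5% in the others.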

How the results depend on the processing

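The 3768 calls became 1302 among regions at or above median abundance, 302 with patches thinned, 4 with the replicate block and 0 in the joint fit, and 1148 to 5348 with 1 library left out. Same-numbered libraries did not deviate together (r from −0.00865 to 0.0120) and not every library correlated best with its own number, so the numbers are not taken as pairs. Leaving out 1 library, the difference in regions with reads at equal depth stayed between 47.04 and 52.18 points, in the fullest 1% between −4.58 and −3.54, and in the median over the mean between −0.253 and −0.214; the smallest adjusted p such designs allow is 0.0893, so none can pass. The differences in share ranged from −0.431 to 1.22 points (widest 25%), −0.817 to 0.839 (gene ends) and −0.542 to 1.05 (most abundant 10%). With mitochondrial rows kept the differences were 50.43 points (equal depth, adjusted p = 0.0926), −13.2 (fullest 1%), −0.0780 (median over mean), −4.05 (widest 25%), −3.51 (gene ends) and −7.00 (most abundant 10%), since those 4 regions then enter their classes. Within 5 kb of a gene end it was −0.299, for the most abundant 25% −0.128 and with abundance from T 100 nuclei −1.03. The other library measures kept side and direction. For 42 named regions, 29 of them called, 756 values were possible under alternatives and 719 were obtained; in the other 37 the region was not tested, 12 of them with patches thinned (Cd40 and Lef1 included). A call was kept in 435, lost in 58 (29 in the joint fit, 27 with the replicate block, 2 by DESeq2) and gained in 1, and 225 stayed without one; no call reversed. Where not stated, the cause was not tested. A region with 0 reads at 100 nuclei was not detected in these libraries; its accessibility is not shown to be absent.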
